A study of Zea mays with 2182 samples.

Results

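Cells rich in the transcript of C2 (colorless2), a maize chalcone synthase gene, were described in anthers of 1.25 to 3.0 mm. A cell was called C2-high when C2 made up at least 0.4% of its transcripts, and 8.96% of the 1261 analysed cells of these lengths met this rule: 17 cells at 1.25 to 1.75 mm, 24 at 2.0 mm and 72 at 2.25 to 3.0 mm. The whole data set held 2182 cells. The cells were chosen by their C2 level, so C2 itself is described without a test. The comparison cells were the 730 cells with 0 C2 transcripts in which RBCS plus CAB1 stayed under 0.5%. RBCS encodes the small subunit of Rubisco and CAB1 a light-harvesting chlorophyll a/b-binding protein. Cells with 0 C2 transcripts and at least 0.5% RBCS plus CAB1 (13.6% of the analysed cells) are called photosynthetic cells here, from these transcripts alone. Cells with some C2 below the threshold (19.6%) are called the cells between.

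All cells came from anthers of the fertile maize inbred line W23, grown in a greenhouse with no treatment. Single cells were sorted from fixed and digested anthers, and transcript ends were counted with CEL-Seq2, in which each captured molecule carries a unique molecular identifier (UMI). Only cells with at least 500 UMIs were used, and lengths, sets of libraries and wells were read from the cell titles. The design text gives at least 2 plants per stage but the titles tie no cell to a plant, so the 8 lengths served as replicates and p-values measure how alike the 8 lengths were.

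Chalcone synthase catalyses the first committed step of flavonoid synthesis, which leads to flavonols, anthocyanins and other phenolic pigments. In anthers the tapetum, the wall layer next to the developing pollen, supplies flavonols to the pollen coat, and maize plants that lack both of their chalcone synthase genes make white, self-sterile pollen. The other gene, WHP1, is nearly identical to C2 and had no row of its own, so reads listed under C2 may include WHP1 reads. No source used here says how shared reads were assigned.

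Of the fixed marker lists, the tapetum and jasmonate lists had 0 rows and the flavonoid list had C2 alone, so the tapetal or other identity of C2-high cells could not be checked with known markers. The rows found in the other marker lists were sparse in all classes of cells. In the 385691 UMIs of C2-high cells RAD51B, a recombination gene, had 2 UMIs, and CR4, a receptor kinase of epidermal differentiation, had 7. SCR, TD1 and LBD6, patterning genes, had 9, 5 and 4 UMIs. In the 1369990 UMIs of comparison cells the same rows had 15, 15, 37, 65 and 45 UMIs. None of these rows passed the filter on low counts.

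C2-high cells became a larger share of the sampled cells in longer anthers. They made up 2.74% of the cells at 1.25 mm (4 cells, exact 95% interval 0.75 to 6.87%), 6.02% at 1.5 mm (8 cells), 3.55% at 1.75 mm (5 cells) and 6.61% at 2.0 mm (24 cells). The share was 13.1% at 2.25 mm (16 cells), 14.2% at 2.5 mm (20 cells) and 20.6% at 2.75 mm (26 cells, interval 13.9 to 28.8%), and 11.2% at 3.0 mm (10 of 89 cells). These intervals, like all counting intervals here, cover counting error only. Taken over spans of lengths, 4.05% of cells of 1.25 to 1.75 mm and 15.1% of cells of 2.25 to 3.0 mm were C2-high.

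Lengths were unevenly spread over the sets of libraries, so the spans were also compared within sets. In set 8.18.21 the share was 5.09% at 1.25 to 1.75 mm and 19.4% at 2.25 to 3.0 mm. In set 3.29.22 it was 1.52% and 8.62%, and in set 1.4.21 it was 2.53% and 8.22%. The share was thus higher at the longer span in each of these 3 sets, although the intervals of the spans overlapped within sets 3.29.22 and 1.4.21. With every cell thinned to 500 UMIs the share ran from 2.74% at 1.25 mm to 20.6% at 2.75 mm, with 7.80% at 1.75 mm, 19.7% at 2.25 mm and 15.7% at 3.0 mm. In shorter anthers, of 0.5 to 1.0 mm, 6 cells reached the threshold (1.51%). The cells are dissociated and sorted, so a share of sampled cells is not the share in the intact anther.

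**Figure D1:**
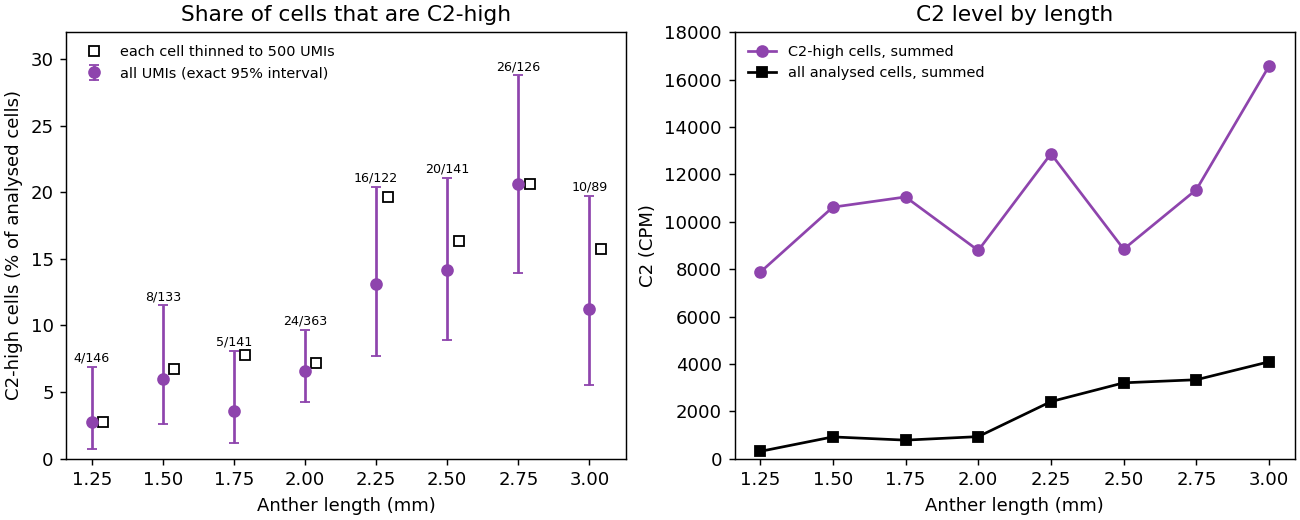
Left, share of analysed cells that were C2-high at each anther length (mm), in percent with exact 95% binomial intervals, cell numbers above each interval and the share after thinning each cell to 500 UMIs as open squares. Right, C2 in CPM (counts per 1000000 UMIs) at each length in the summed C2-high cells and in all analysed cells. The share stayed at or under 6.61% up to 2.0 mm and was at least 11.2% from 2.25 mm on.

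The C2 transcript was concentrated in these cells. C2 made up 0.408 to 3.19% of the UMIs of a C2-high cell, with a median of 0.897%, and 11 cells reached 2% or more. A C2-high cell held at least 3 C2 UMIs, and 88 of the cells (77.9%) held at least 10. C2-high cells held 82.5% of the 4789 C2 UMIs of these lengths and 12.6% of all UMIs. The C2 level over all analysed cells was 308.7 CPM (counts per 1000000 UMIs) at 1.25 mm, then 933 CPM by 2.0 mm and finally 4092 CPM in the longest anthers, and C2-high cells carried 59.1%, 76.4% and 96.1% of the C2 UMIs at these lengths. Within C2-high cells, where the rule sets the lowest possible level, C2 was at 7865 CPM in the shortest and 16578 CPM in the longest anthers. At the lengths between it was at 8789 to 12871 CPM, without a steady rise. In the longest anthers 1 cell gave 49.8% of the UMIs.

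The threshold did not fall in an empty range. The cells just inside it had 0.408, 0.416 and 0.428% C2, and those just outside had 0.398, 0.392 and 0.386%. Between 0.3 and 0.5% there were 28 cells, of which 10 were C2-high.

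C2-high cells had low RBCS and CAB1, although the rule set no limit on either in these cells. Of these cells 0 reached 0.5% RBCS plus CAB1, a count that allows a share of up to 2.65%, and 67 had 0 UMIs of both. The highest value was 0.419%. In contrast, 19.0% of the 901 cells with 0 C2 UMIs and 10.5% of the cells between (26 cells) reached 0.5%. C2-high cells were deeper, with a median of 1829 UMIs against 1127 in comparison and 1401 in photosynthetic cells, while the cells between had 1973.

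**Figure D2:**
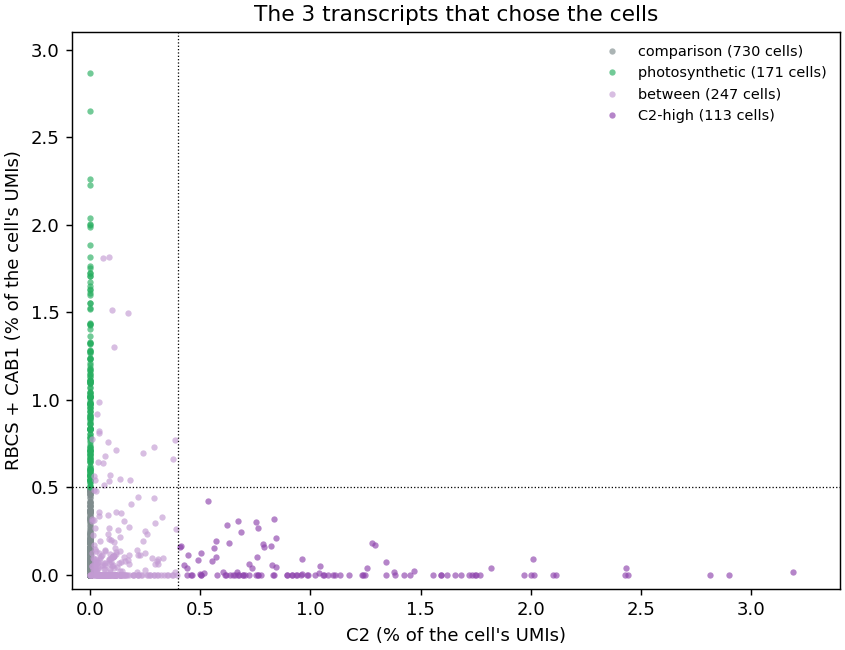
Each point is 1 analysed cell, placed by C2 (x) and RBCS plus CAB1 (y), both as percent of the cell's UMIs; dotted lines mark 0.4% C2 and 0.5% RBCS plus CAB1. The C2-high cells lie along the C2 axis, with no cell above 0.419% RBCS plus CAB1, and 26 of the cells between lie above the horizontal line.

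The C2-high cells were spread over 33 of the 46 pools (a set, its number and a length), with at most 17 in a pool. They came from 62 of the 96 well numbers, and 6 well numbers were C2-high in at least 4 pools and held 27 of the cells. No cells had identical counts. Summed C2-high cells held 4959 UMIs at 1.25 mm, 6426 at 1.75 mm and 11868 at 1.5 mm, and 31548 to 121428 at the longer lengths. The deepest cell gave 11.6 to 16.1% of the UMIs at 2.0 to 2.75 mm, 33.5 to 42% at 1.25 to 1.75 mm, and 49.8% at 3.0 mm, so values at the shortest lengths and at 3.0 mm rest on few cells.

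C2-high cells differed from comparison cells in 21.8% of the 3655 rows tested, out of 22173 rows in all. NIP1-1, an aquaporin-like membrane channel, rose furthest among the named genes that met the naming rule, and the aquaporins PIP1-3 and TIP1-1 rose as well. PPDK2, a pyruvate orthophosphate dikinase, fell furthest among the named genes that met the naming rule, and HMGIY2, a chromatin protein gene, and 13 of 24 tested plastid rows fell. Sums of the 2 sides per length were compared with edgeR's quasi-likelihood test with length as a block and Benjamini-Hochberg adjustment, after C2, RBCS and CAB1 were taken out. A row was tested when about 2 sums reached 124.5 CPM. NIP1-1, Zm00001d007403 and Zm00001d003046 passed through C2-high sums alone and PPDK2 through comparison sums alone. These rows could be tested only because 1 side was high, so their adjusted p-values, given below, add no support to their levels. Of 3655 rows tested, 798 were called at a false discovery rate of 0.05 (21.8%), 340 higher (9.30%) and 458 lower (12.5%). The median log2 difference of all rows tested was -0.21, and with library sizes alone as the scaling it was -0.06. The share of calls that were higher was 42.6%, and 53.2% with library sizes alone. Most rows carry IDs with no name in the sources used here: of the 76 tested rows with a gene symbol, 7 were called higher and 21 lower.

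NIP1-1 was at 403.3, 758, 311.2, 783, 1254, 329.4, 879 and 1236 CPM in the C2-high sums from 1.25 to 3.0 mm. In comparison cells it was at 25.6 to 117.5 CPM and in the cells between at 71.8 to 385.9 CPM. The C2-high and comparison sums did not overlap at any pair of lengths. The mean was 744 ± 377.6 CPM in C2-high and 63.0 ± 30.6 CPM in comparison cells (SD, n = 8 lengths), a log2 difference of 3.25 ± 0.37 (SE; edgeR adjusted p = 2.6e-16). NIP1-1 UMIs were found in 79 C2-high cells (69.9%), 31.6% of the cells between, 6.03% of comparison and 1.17% of photosynthetic cells. At 500 UMIs per cell these shares were 25.7, 8.91, 3.01 and 1.17%. The channel group to which NIP1-1 belongs, the nodulin 26-like intrinsic proteins, transports small uncharged solutes as well as water.

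PIP1-3, a plasma membrane aquaporin, was at 311.2 to 715 CPM in C2-high sums (median 442) and 52.7 to 345.7 CPM in comparison sums (median 181.3). It was higher at 7 of 8 lengths, all but 3.0 mm, and the ranges overlapped (log2 difference 1.19 ± 0.33 SE, edgeR adjusted p = 0.0033). TIP1-1, an aquaporin of the vacuolar membrane, had its highest C2-high value at 1.25 mm (2621 CPM) and its lowest at 3.0 mm (126.8 CPM), where comparison cells had 172.8 CPM. It was higher at the other 7 lengths, with means of 1315 ± 746 CPM and 473 ± 206.1 CPM (SD, n = 8). The log2 difference of TIP1-1 was 0.94 ± 0.33 (SE, edgeR adjusted p = 0.025). TIP1-1 was about as high in the cells between as in C2-high cells, with a mean of 1201 CPM.

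Of the 10 aquaporin rows 6 were tested, and 3 were called higher, against 9.30% of all rows, and 0 lower. NIP1-1, 1 of these 3, passed the filter through C2-high sums alone, so its call adds no support. The median log2 difference of the tested aquaporin rows was 0.64, against -0.21 for all rows. SIP1-2, PIP2-1 and PIP2-2 did not pass the test, with log2 differences of 0.35, -0.14 and -0.14. The summed level of all aquaporin rows, NIP1-1 included, was higher in C2-high than in comparison cells at 8 of 8 lengths. The 2 groups did not overlap, with 3106 CPM the lowest C2-high sum, at 3.0 mm, and 2904 CPM the highest comparison sum, at 2.25 mm. At 3.0 mm comparison cells had 2025 CPM, and the C2-high sum was above them only with NIP1-1 included. The lack of overlap thus also rested on NIP1-1.

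The other named genes called higher act in several processes. SODCC.2, a cytosolic copper/zinc superoxide dismutase that removes superoxide, had means of 612 ± 360 CPM in C2-high and 270 ± 88.7 CPM in comparison cells (SD, n = 8; log2 difference 0.90, edgeR adjusted p = 0.032). It was higher at 7 of 8 lengths and had 0 UMIs at 1.25 mm, where C2-high cells held 4959 UMIs. BX9, a glucosyltransferase of the benzoxazinoid defence compounds, was at 337.6 to 1008 CPM in C2-high and 155.5 to 306.6 CPM in comparison sums, which did not overlap (log2 difference 0.87 ± 0.32 SE, edgeR adjusted p = 0.037). Photosynthetic cells had a mean of 503 ± 175.3 CPM of BX9, against 571 CPM in C2-high cells. The calls of TIP1-1, SODCC.2 and BX9 were lost in 10, 13 and 11 of the 23 alternative settings, while their direction held in all.

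UGT708A6 and LA1 were also called higher, but fell outside the naming rule because of their low levels and are named after their values were seen. UGT708A6 is a maize glucosyltransferase that acts on flavonoids, forming C- and O-glucosides. It had 15 UMIs in 14 C2-high cells and 1 UMI in comparison cells, a ratio of summed CPM of 53.3 (95% counting interval 8.20 to 2243). It was present at 6 of 8 lengths in C2-high cells and had 6 UMIs each in the cells between and in photosynthetic cells. LA1, the lazy plant1 gene of shoot gravitropism, had 17 UMIs in 10 C2-high cells against 1 UMI in comparison cells, and 35.3% of the 17 UMIs came from 1 cell. Both rows passed the filter through C2-high sums alone, so their calls add no support to these counts.

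The largest rises belonged to rows known only by their ID. Zm00001d007403 was at 506 to 1045 CPM in every C2-high sum and at 0 to 24.7 CPM in comparison sums, where 4 UMIs were found in all. Its log2 difference was 7.08 ± 0.53 (SE, edgeR adjusted p = 5.2e-37), and it had 0 UMIs in photosynthetic cells. Among C2-high cells 60.2% had a UMI of it, and 13.4% of the cells between (23.9 and 3.24% at 500 UMIs per cell). Zm00001d003046 was absent from the C2-high sum at 1.25 mm and at 84.3, 311.2, 470, 2091, 502, 1411 and 1458 CPM from 1.5 to 3.0 mm, against at most 21.0 CPM in comparison sums (log2 difference 6.20 ± 0.51 SE, edgeR adjusted p = 6.2e-31). In all, 429 rows known only by an ID met the other criteria of the naming rule.

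**Figure D3:**
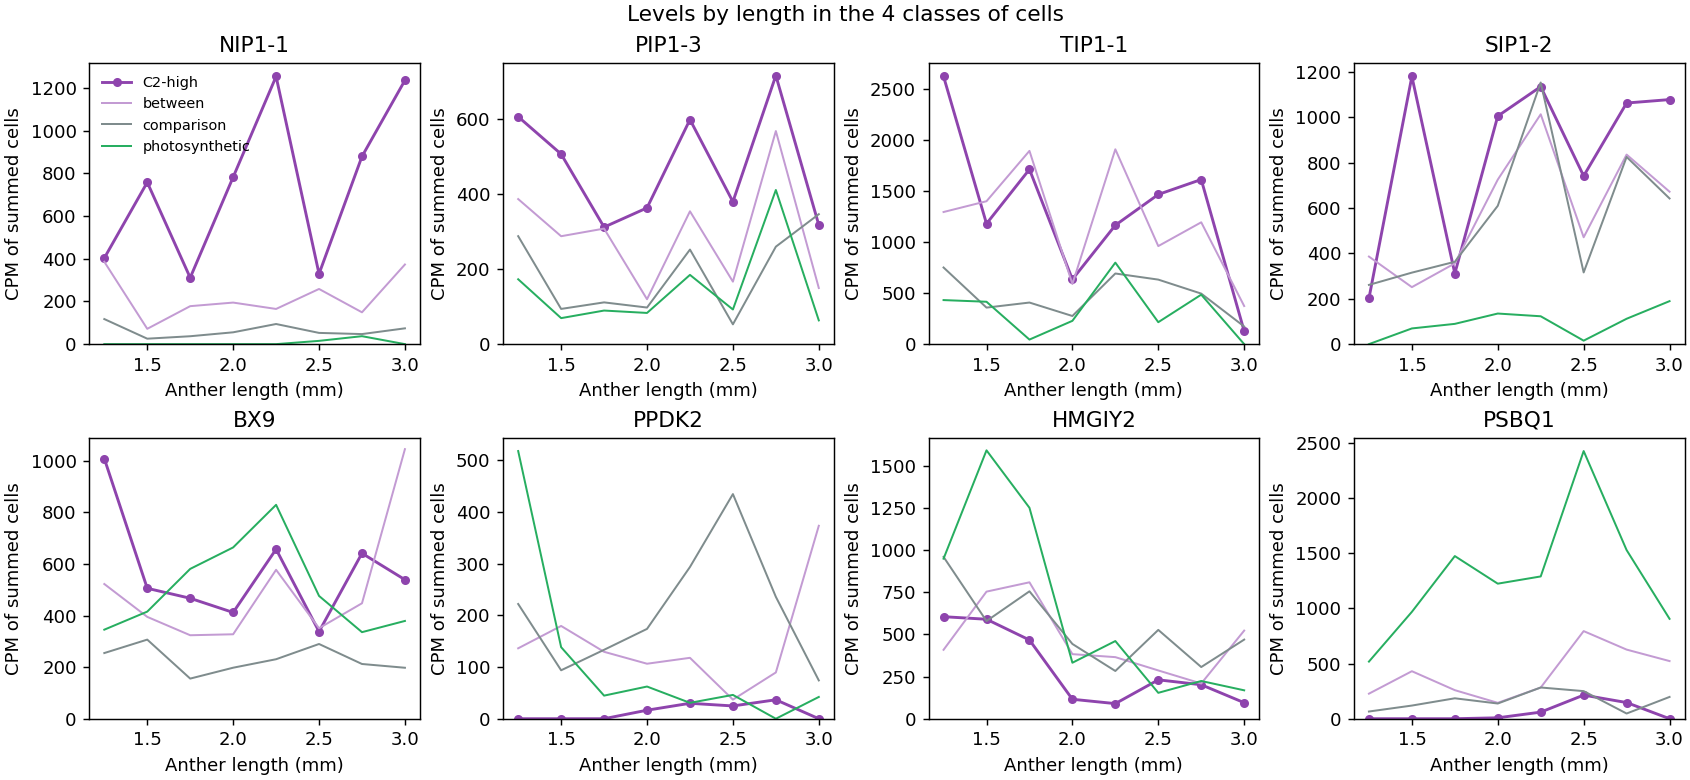
CPM of 8 named genes (y, 1 panel per gene) against anther length in mm (x) in the summed cells of the 4 classes, 1 value per class and length. NIP1-1 in C2-high cells (311.2 to 1254 CPM) lies above the other 3 classes at each length, SIP1-2 separates C2-high from photosynthetic cells only, and PPDK2 stays at or under 36.6 CPM in C2-high cells.

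PPDK2 was lower in C2-high cells at 8 of 8 lengths. It had 0 UMIs at 4 lengths and at most 36.6 CPM at the others, whereas comparison sums held 74.1 to 434 CPM and did not overlap (means 13.5 ± 15.4 and 207.6 ± 117.9 CPM, SD, n = 8; log2 difference -3.68 ± 0.52 SE, edgeR adjusted p = 9.5e-11). PPDK2 was found in 7 C2-high cells (6.19%) and 17.9% of comparison cells, shares of 0.885 and 10.5% at 500 UMIs. GAPC3, a cytosolic glyceraldehyde-3-phosphate dehydrogenase of glycolysis, also fell (log2 difference -1.19 ± 0.38 SE, edgeR adjusted p = 0.012), at 6 of 8 lengths, with means of 120 and 382.4 CPM, and its call was lost in 7 of 22 alternatives. GAPC3 was named after its values were seen. It was the 1 of 3 tested metabolic rows that was called, since GAPC2 (log2 difference -0.40) and SAMDC, S-adenosylmethionine decarboxylase of polyamine synthesis (0.11), did not pass the test.

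Of the 7 chromatin and DNA replication rows 4 were tested, and 3 were called lower, against 12.5% of all rows, and 0 higher. The called rows were HMGIY2, DMT105 and ROA2, and the latter pair passed the filter through comparison sums alone, so their calls add no support. HMGIY2, an HMG-I/Y DNA-binding chromatin protein, was at 605, 590, 467, 115.3, 89.6, 230.6, 201.5 and 95.1 CPM in C2-high sums from 1.25 to 3.0 mm, against 283.02 to 959 CPM in comparison sums, and was lower at 7 of 8 lengths. The ranges overlapped (log2 difference -1.48 ± 0.35 SE, edgeR adjusted p = 2.4e-04). DMT105, a chromomethylase that maintains DNA methylation, had 5 UMIs in C2-high cells (13.0 CPM over their summed UMIs) against 97.1 CPM in comparison cells. ROA2, named for replication origin activation, had 7 UMIs (18.1 CPM) against 102.9 CPM. MNB1B, a high-mobility-group protein, did not pass the test, with a log2 difference of -0.56. The untested members FEN1, MAD2 and PCNA had 6, 6 and 1 UMIs in C2-high cells. DMT105 and ROA2 were named after their values were seen.

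Many plastid-encoded genes were called lower, against 12.5% of all rows. Of the plastid photosystem rows 3 of 5 were called lower (median log2 difference -1.13), of the other plastid rows, mostly ribosomal protein, RNA polymerase and ATP synthase genes, 10 of 14 (median -1.003), and of the NADH dehydrogenase rows 0 of 5 (median -0.92), with 0 called higher in each. The fall of rps18, a plastid ribosomal protein gene, was among the largest: 84.3 to 605 CPM in C2-high sums against 320.99 to 1031 CPM in comparison sums, lower at 7 of 8 lengths (log2 difference -1.55 ± 0.35 SE, edgeR adjusted p = 1.3e-04). The ribosomal protein genes rpl33 (-1.54), rps16 (-1.23) and rpl14 (-0.97), the RNA polymerase subunit rpoC2 (-1.03), ycf70 (-1.04) and the translation initiation factor infA (-0.87) also met the naming rule. In 23 alternatives each, the call of infA was lost in 14, that of rpl14 in 9 and those of rpoC2 and ycf70 in 5, beside the change of sign of ycf70 given next. Among the nuclear photosynthesis rows not used to choose cells, PSBQ1, an oxygen-evolving complex protein of photosystem II, fell (log2 difference -1.48 ± 0.43 SE, edgeR adjusted p = 0.0046). FDX3, a ferredoxin of non-green tissue, did not pass the test (log2 difference 0.28).

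The plastid result depends on the comparison cells, which hold some RBCS and CAB1. Against cells with 0 UMIs of C2, RBCS and CAB1, psbC, psbB, cemA and ycf70 had log2 differences of 0.31, 0.56, 0.21 and 0.29, against -1.13, -1.18, -0.93 and -1.04 in the main comparison. rps18 and rps16 kept their direction and call in all 23 alternatives. TIF, another gene that met the rule, also kept its call in all 23 (log2 difference -1.41 ± 0.35 SE, edgeR adjusted p = 7.7e-04).

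Genes of several housekeeping groups were not called in either direction, where 21.8% of all rows were called. This held for 4 of 4 tested alpha-tubulin rows (median log2 difference 0.03), 5 of 5 cytosolic ribosomal protein rows (-0.61), 4 of 4 mitochondrial rows (-0.27) and 4 of 4 rows of actin binding and pollen genes (0.11). SGS3, which acts in the making of secondary small RNAs, had a log2 difference of -0.04. With so few rows in each group, a lack of calls beside that share says little about a group. A missed threshold does not show equal levels: for TUBA3 the means were 1296 ± 584 and 920 ± 351.2 CPM (SD, n = 8).

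**Figure D4:**
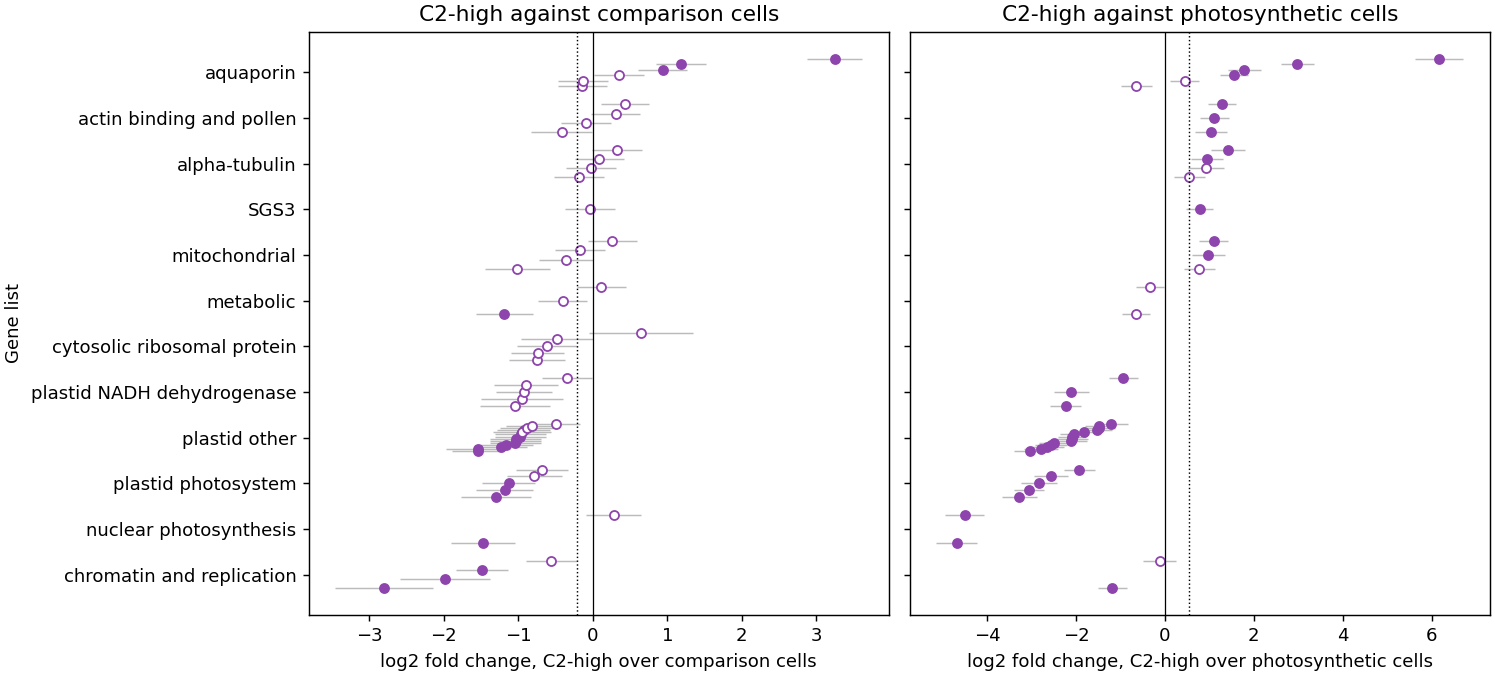
log2 fold change with its standard error for each tested list member, grouped by gene list (y), in C2-high over comparison cells (left) and over photosynthetic cells (right). Filled points were called at a false discovery rate of 0.05, open points were not, and the dotted line is the median of all rows tested (-0.21 and 0.54); the C2-high sums are the same in both panels.

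The 24PHAS loci, sources of the 24-nucleotide phased small RNAs that accumulate in anthers around meiosis, had fewer transcripts in C2-high than in comparison cells at 1.25 to 2.0 mm. At 1.25 to 1.75 mm the 17 C2-high cells had 15 24PHAS UMIs of 23253, a level of 645 CPM (exact Poisson 95% interval 361.1 to 1064). These UMIs came from 4 cells, and the interval does not cover the spread between cells. The comparison cells of these lengths had 6402 CPM (6158 to 6653), the cells between 5765 CPM and photosynthetic cells 268.4 CPM. At 1.75 mm alone C2-high cells had 1867 CPM and comparison cells 9184 CPM. At 2.0 mm, where the C2-high sum is deep, 24PHAS stood at 24.7 CPM (3 of 121396 UMIs) against 1667 CPM in comparison cells, but the cells between were also low there, at 32.7 CPM, and photosynthetic cells had 0 UMIs. From 2.25 mm on there were 0 24PHAS UMIs in C2-high sums and at most 23.6 CPM in comparison sums.

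The share of cells with any 24PHAS UMI at 1.25 to 1.75 mm was 23.5% in C2-high, 72.6% in the cells between, 43.5% in comparison and 25.7% in photosynthetic cells. At 500 UMIs per cell it was 17.6% (interval 3.80 to 43.4%), 58.1%, 36.9% (interval 31.5 to 42.6%) and 20.0%. The interval of C2-high cells, which rests on 3 cells, spans that of comparison cells. The share in C2-high cells was thus at or below that in photosynthetic cells, while the CPM of C2-high cells was above theirs, with overlapping intervals (361.1 to 1064 and 142.9 to 459 CPM). Of 75 loci 18 passed the filter, and 17 were called lower; since these loci passed it through the comparison cells, this count adds no support. zma-MIR2275c, the precursor of a microRNA that directs cleavage of 24PHAS transcripts, had 0 UMIs in C2-high cells and 63 in comparison cells. Comparison cells also had 0 UMIs of it at 4 of the 8 lengths. The C2-high UMIs of all lengths therefore set no limit on the fold difference. This row passed the filter through comparison sums alone. The 21PHAS loci were sparse, and 0 passed the filter.

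PRO3 and ADF2, which belong to the profilin and actin depolymerizing factor families, were untested members of the actin and pollen list, and are named after their values were seen. At 3.0 mm PRO3 was at 3482 CPM in comparison cells, 758 CPM in photosynthetic cells and 298.6 CPM in the cells between. It had 0 UMIs in the 31548 of C2-high cells, where 3 counts would be 95.1 CPM. ADF2 had 48 UMIs in comparison cells and 0 in C2-high cells at that length. The PRO3 UMIs of comparison cells came from 7 cells, and none was seen at shorter lengths. At 3.0 mm there were 34 comparison and 10 C2-high cells, so an absence from C2-high cells gives no limit on the fold difference.

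**Figure D5:**
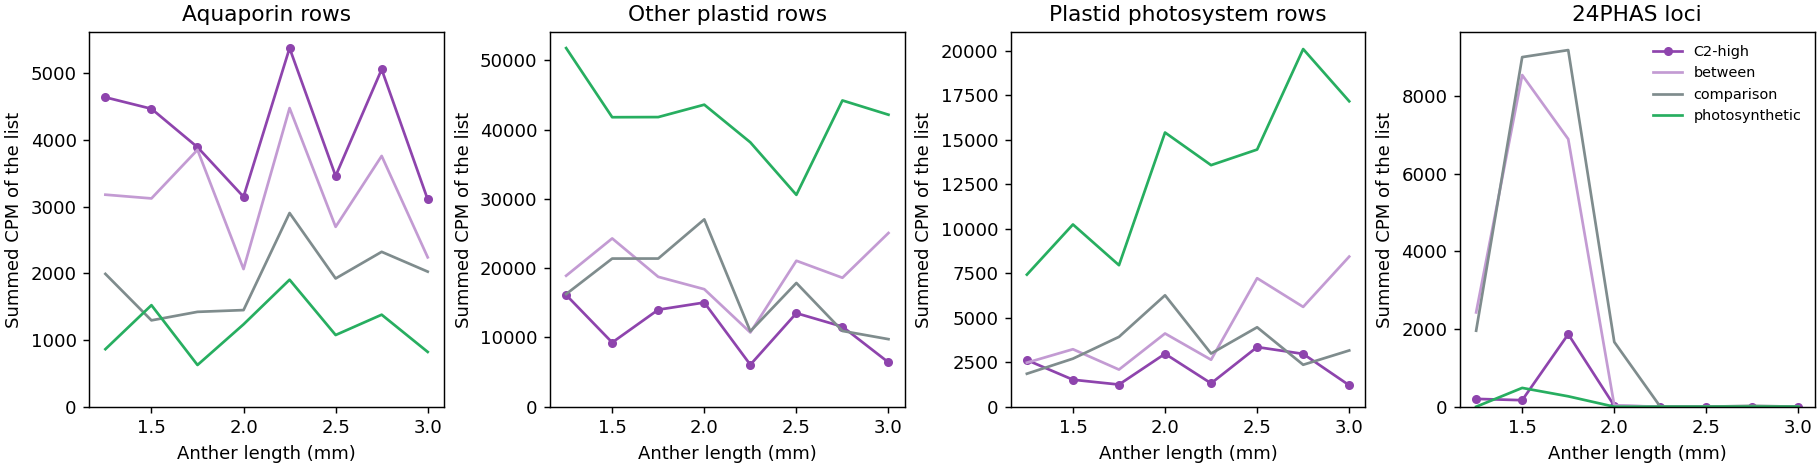
Summed CPM of 4 groups of rows (y) against anther length in mm (x) in the 4 classes of cells. Aquaporin sums, which include NIP1-1, are highest in C2-high cells at each length, and plastid sums are highest in photosynthetic cells. 24PHAS transcripts are highest in comparison cells and the cells between at 1.25 to 1.75 mm and in comparison cells alone at 2.0 mm.

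C2-high cells were also compared with photosynthetic cells. With the same C2-high sums as before and the same test, 526 of 912 rows were called (57.7%), 35.6% of rows higher and 22.0% lower. The median log2 difference was 0.54, and the split moved with the scaling: 61.8% of calls were higher with TMM factors, 48.2% with RLE factors (median 0.14) and 75.2% with library sizes alone (median 1.10). The photosynthetic cells were chosen by RBCS and CAB1, so other photosynthesis genes are not independent of that choice. The filter cutoff came from the sums of this comparison. NIP1-1, SIP1-2 and SODCC.2 stayed under it in all photosynthetic sums and passed through C2-high sums alone. Adjusted p-values of such rows add no support to their levels. The values of both comparisons are given side by side because they share the C2-high sums.

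NIP1-1 was at 718 CPM over the summed C2-high cells and had 2 UMIs in photosynthetic cells, a ratio of summed CPM of 113.8 (95% counting interval 31.2 to 944), and was higher at 8 of 8 lengths (log2 difference 6.17 ± 0.55 SE, edgeR adjusted p = 1.8e-11). SIP1-2, a small basic intrinsic protein of the aquaporin family, was at 201.7 to 1180 CPM in C2-high sums and 0 to 189.5 CPM in photosynthetic sums, groups that did not overlap (log2 difference 2.98 ± 0.37 SE, edgeR adjusted p = 1.6e-08). This gene did not pass the test against comparison cells, where its mean was 561 ± 311.4 CPM against 839 ± 384.04 CPM in C2-high cells (SD, n = 8). TIP1-1 (1.78), SODCC.2 (1.58) and PIP1-3 (1.56) were the other named rises. Of 6 tested aquaporin rows 4 were called higher, against 35.6% of all rows, and 0 lower (median log2 difference 1.67). NIP1-1 and SIP1-2, among these 4, passed the filter through C2-high sums alone, so their calls add no support. The IDs Zm00001d037383 and Zm00001d049910 had 0 UMIs in photosynthetic cells and were at least 75.0-fold and 70.9-fold higher in C2-high cells, with a limit of 3 counts over the group.

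PSBQ1 (log2 difference -4.68 ± 0.46 SE, edgeR adjusted p = 1.5e-10) and PSAH, a photosystem I subunit (-4.51 ± 0.43 SE, edgeR adjusted p = 8.8e-11), fell furthest among named genes. Both passed the filter through photosynthetic sums alone, so these adjusted p-values add no support to their levels. PSBQ1 was at 518 to 2426 CPM in photosynthetic sums and 0 to 214.1 CPM in C2-high sums. All 22 tested plastid rows were called lower, against 22.0% of all rows. They were 5 of 5 photosystem, 3 of 3 NADH dehydrogenase and 14 of 14 other rows, with medians of -2.83, -2.10 and -2.09. Of these rows psaC, ndhG and rpl33 passed the filter through photosynthetic sums alone, so their calls add no support. psbB (-3.28), psbC (-3.06) and ycf70 (-3.04) met the naming rule. Zm00001d013455 had 94 UMIs in photosynthetic cells and 1 in C2-high cells, a ratio of 114.4 (counting interval 20.0 to 4567). Zm00001d039040 had a log2 difference of -5.62.

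Actin-binding rows were called higher against photosynthetic cells in 3 of 3 tests (ADF3, PRO4 and PRO5, median log2 difference 1.11). The same held for 2 of 4 alpha-tubulin rows and 2 of 3 mitochondrial rows (ANT1 and ANT2, mitochondrial adenine nucleotide translocators). Of all rows, 35.6% were called higher. TUBA6, 1 of the called alpha-tubulin rows, and ANT2 passed the filter through C2-high sums alone, so their calls add no support.

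For a description of the spread among C2-high cells, they were divided at their median C2 of 0.897%, into 57 cells at or below it and 56 above, with all lengths pooled. NIP1-1 was at 577 CPM (exact Poisson 95% interval 477 to 691) in the cells with less C2 and 878 CPM (747 to 1026) in those with more. TIP1-1 was at 1256 CPM (1107 to 1419) and 922 CPM (788 to 1073). PSBQ1 had 36 UMIs in the cells with less C2 and 1 UMI in those with more, PPDK2 had 8 and 0 UMIs, and HMGIY2 stood at 244.4 and 121.5 CPM. PIP1-3 (395.9 and 491 CPM), SODCC.2 (601 and 646 CPM) and BX9 (435 and 497 CPM) had overlapping intervals. The groups were made from the C2 values that chose the cells, the intervals cover counting error only, and whether cells or lengths differ in these genes was not tested.

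Few rows changed with length within C2-high cells. In edgeR's quasi-likelihood test of the slope over the 8 sums, 6 of 554 rows were called (1.08%), all rising, and 0 of the 41 tested rows with a symbol. Zm00001d025564 rose from 0 CPM at 1.25 to 1.75 mm to 24.7, 328.5, 461, 476 and 9826 CPM from 2.0 to 3.0 mm (log2 slope 7.59 per mm, edgeR adjusted p = 6.0e-05). Zm00001d031855 was at 11728 CPM at 3.0 mm and at most 934 CPM at the other lengths (log2 slope 5.28 per mm, edgeR adjusted p = 0.0019). At 3.0 mm 1 cell gave 49.8% of the UMIs of the C2-high sum, and its part in these values was not tested.

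The difference between C2-high and comparison cells changed with length for 2 of 3655 rows in the edgeR test of the interaction (0.0547%), with 290 rows at an unadjusted p under 0.05. Zm00001d017077 was at 126.8 to 778 CPM in C2-high sums at all lengths, while in comparison sums it was at 0 CPM up to 1.75 mm and at 377.1 CPM at 2.75 mm. Its log2 difference fell by 5.71 per mm (edgeR adjusted p = 1.9e-04). Zm00001d039848 fell by 3.46 on the log2 scale per mm (edgeR adjusted p = 0.018), with 2534 CPM in comparison cells at 2.75 mm. These calls were lost in 5 and 8 of 16 alternatives, none of which took pools as blocks or single sets. At 2.75 mm 1 pool of set 3.29.22 held 34 of the 60 comparison cells but 2 of the 26 C2-high cells. The part of that pool in these values was not tested. With a length left out the count ran from 1 to 25 rows, and without 3.0 mm 80% of the 25 calls were positive, against 0 with all lengths. Neither NIP1-1 (log2 0.89 per mm, edgeR adjusted p = 0.81) nor PIP1-3 (-0.18, edgeR adjusted p = 0.98) passed this test.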

How the data were processed

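The deposited values were whole-number UMI counts per row and cell, with no scaling by the authors, for 22173 rows in 2182 cells. Per the labels' protocols, cells were isolated by the FX-Cell procedure and libraries made by CEL-Seq2. The submitters' processing notes name HISAT2 and, as build, B73 RefGen_v4, while no counting tool is given in the sources used here. The reference table belongs to another build, so no coordinates are given; it matched 158 of 163 symbols and 0 of 21635 v4 IDs.

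Cells with at least 500 UMIs at 1.25 to 3.0 mm were classed by C2, RBCS and CAB1, and counts were summed per class and length with at least 3 cells per side. The members, gene lists and tests were chosen with earlier results of these data known. The summed counts went into edgeR 4.0.16 under R 4.3.3 (TMM, filterByExpr, quasi-likelihood F-test, Benjamini-Hochberg, false discovery rate 0.05), tested on simulated data first. CPM values use all UMIs without TMM factors. Doublets were not removed and no caller was run. Named genes had a symbol, a call, a mean of at least 100 CPM on the higher side and the same sign at 7 or more of 8 lengths, the 12 largest each way (5 for the other comparisons), plus 2 IDs each way and list members. Alternatives included DESeq2 1.42.0, other scalings, thinning to 500 UMIs, other thresholds, pools as blocks, single sets and each length left out. Intervals are exact at 95%.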

Additional observations from a re-analysis of the deposited data

Results flagged for a closer look

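In 62 groups of 8 lengths examined for a length far from the rest, 8 stood out. The nominal rate by chance is about 1 in 20, but the rate for sparse counts such as these was not measured. In comparison cells UGT708A6 was at 11.8 CPM at 2.75 mm and LA1 at 7.41 CPM at 1.75 mm, each a single UMI with 0 at the other lengths. Zm00001d007403 was at 24.7 CPM at 3.0 mm in comparison cells, and at 1045 CPM at 2.25 mm in C2-high cells. ROA2 in C2-high cells was highest at 3.0 mm (63.4 CPM). Zm00001d039274 and Zm00001d013377 were at 3642 and 3760 CPM at 2.75 mm in comparison cells, against a median of 141.5 CPM over the 8 lengths for the former, and 1 cell gave 9.94 and 9.18% of their comparison UMIs. At that length 34 of the 60 comparison cells, but 2 of the 26 C2-high cells, came from 1 pool of set 3.29.22. Zm00001d013377 was highest at 1.75 mm in C2-high cells, at 155.6 CPM.

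The difference between C2-high and comparison cells changed with length for Zm00001d017077 (-5.71 log2 per mm) and Zm00001d039848 (-3.46 log2 per mm), by the edgeR test of the interaction, calls that were lost in 5 and 8 of 16 alternatives. None of these alternatives took pools as blocks or single sets.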

How the results depend on the processing

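NIP1-1, PPDK2, HMGIY2, TIF, rps16 and rps18 kept their direction and call against comparison cells in every alternative that tested them. NIP1-1 and PPDK2 passed the main filter through 1 side alone, so their kept calls add no support. Of 673 refits of 33 genes that gave an adjusted p, 563 kept the main result and 7 changed sign, and the others lost the call. Those that changed sign were psbC (0.31), psbB (0.56), cemA (0.21) and ycf70 (0.29) against comparison cells with 0 UMIs of C2, RBCS and CAB1, SIP1-2 with pools as the replicate block (-0.00104) and in the sets other than 8.18.21 (-0.00314), and FDX3 without the wells that are C2-high in at least 4 pools (-0.23). The cause was not tested. With each length left out in turn, 18 of 31 called genes kept the call in every fit.

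With pools as the replicate block, 64.3% of 597 rows tested were called against comparison cells (21 pools) and 92.6% of rows tested against photosynthetic cells (18 pools). Of the main calls tested in the former, 96.2% were called again.

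The share of tested rows called against comparison cells, 21.8% in the main fit, was 17.1 to 23.5% with a length left out (without 2.0 mm, 525 rows), 4.89% of 21756 rows without a filter, 59.7% with thinned cells, 33.7% of 2150 rows at 0.8% C2, 19.2% of 2416 with at least 10 cells per side, 23.2% of 1295 in set 8.18.21 and 25.6% of 971 in the other sets (added after the data were seen). Against photosynthetic cells, where it was 57.7%, it was 48.4 to 60.1% with a length left out, 5.22% of 19438 without a filter, 90.8% thinned, 78.8% in set 8.18.21 and 91.2% of 170 rows in the other sets. The slope gave 4 to 10 rows with a length left out, 16 with DESeq2, 28 without a filter and 2 thinned. The interaction gave 1 (without 1.5 mm) to 25 rows (without 3.0 mm), 10 with RLE or no TMM factors, 1 with DESeq2, 1 at 1000 UMIs, 14 at 0.8% C2, and 0 without a filter, thinned or with at least 10 cells. Sets 1.4.21 and 3.29.22 alone had 1 length each and were not run. Thinning, blocks and stricter cell numbers left fewer rows to test.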
